A study of Mus musculus with 28 samples.

Results

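Chondrocyte cultures of a mouse cranial neural crest line were compared with proliferating cultures of the same line at 21% O2. The comparison takes 8 of the 28 RNA sequencing libraries of the series, chosen by their labels: 4 of chondrocyte cultures and 4 of proliferating cultures. All were O9-1 cells, an immortal line of mouse cranial neural crest cells that can be kept multipotent or led into skeletal and smooth muscle fates. Proliferating cells grew in DMEM conditioned by STO feeder cells, with 15% fetal calf serum, 25 ng/ml of bFGF and 5 ng/ml of LIF. Chondrocyte cultures spent 3 days in the osteoblast medium described below and then 7 days as a micromass on plastic coated with matrigel. The medium for those 7 days was alpha-MEM with 5% serum, insulin, transferrin and selenium, 0.1 µM dexamethasone, 10 ng/ml of TGF-beta3 and 50 ng/ml of BMP-2. The groups therefore differ in medium, serum, culture form, surface and days in culture at once, and these cannot be told apart. Each culture is 1 line, and the labels do not say whether the 4 samples of a group came from separate cultures, so the p-values measure the spread between these samples. For direct comparison, 4 osteoblast libraries were used (10 days in alpha-MEM with 10% serum, beta-glycerophosphate, 0.1 µM dexamethasone and 100 ng/ml of BMP-2). The same pair of states was also sampled at 0.5% O2, with 3 libraries each.

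Cartilage cells of the face arise from the cranial neural crest. They lay down a matrix of type II, IX and XI collagen fibrils that holds aggrecan, a large proteoglycan whose chondroitin sulphate chains draw in water. The transcription factor Sox9, with Sox5 and Sox6, switches on these matrix genes. Cartilage that will be replaced by bone goes through hypertrophy, in which its cells make type X collagen and the enzymes and phosphoproteins of mineralisation. Bone and perichondrial cells instead make mostly type I collagen. BMP and TGF-beta ligands drive mesenchymal cells towards these fates, whereas FGF and LIF are used to keep crest cells dividing.

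The 8 libraries held 23904199 to 64693346 counts assigned to genes, and proliferating replicate 2 was the deepest. No pair of libraries was identical or alike within counting noise. Proliferating replicate 4 stood apart from its 3 partners: the chi-square per gene between 2 libraries, which is near 1 where they differ by counting noise alone, was 18.5 to 23.5 with it and 5.22 to 6.01 without it. Among chondrocyte libraries, replicates 2 and 3 were the closest pair at 8.68, and the other pairs lay between 28.3 and 37.4. In a principal component analysis of these 8 libraries, the first component held 93.6% of the variance and separated the states. Levels are given as CPM (counts per 1000000 counts), scaled over these 8 libraries by edgeR's TMM factors. A fold change is the log2 ratio of chondrocyte to proliferating cultures from edgeR's quasi-likelihood test, with its standard error (SE) taken as the fold change over the square root of the F statistic. A gene was called where its Benjamini-Hochberg adjusted p over all genes tested was under 0.05.

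The labelled cell type was checked against Col2a1, Acan and Col11a1. Col2a1 (chromosome 15, 97975602 to 98004695, minus strand of mm10), which encodes the type II collagen of cartilage, was at 0, 0, 0 and 0.0736 CPM in proliferating replicates 1 to 4 and at 1144, 5563, 6370 and 2217 CPM in chondrocyte replicates 1 to 4. Only 2 counts were seen over all proliferating libraries, so the ratio of 314742 has a wide counting interval whose lower limit is 87130, at 95% and for counting error only. Acan (chromosome 7, 79053483 to 79115099, plus strand), which encodes aggrecan, was at 21.2, 22, 21.8 and 25 CPM and at 1760, 2773, 2477 and 1565 CPM (log2 fold change 6.58, SE 0.21, adjusted p = 1.54e-09). Col11a1 (chromosome 3, 114030540 to 114220718, plus strand) was at 1.84, 2.2, 2.42 and 7.14 CPM in proliferating and at 4756, 6549, 6348 and 5968 CPM in chondrocyte cultures (10.85, SE 0.47, adjusted p = 6.24e-08). In each of the 3 markers every chondrocyte library lay above every proliferating library. Several other cartilage genes were not expressed at a level that could be tested: Matn1, Chad, Cnmd, Snorc, Ucma, Epyc and Mia all had a mean below 0.1 CPM in both states. In a culture measured in bulk, a change in the share of cells of a type and a change in RNA per cell cannot be told apart.

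Most of the genes tested differed between chondrocyte and proliferating cultures. Of 14360 genes that passed the filter on low counts, 10760 (74.9%) were called, 5416 (37.7%) higher and 5344 (37.2%) lower in chondrocyte cultures. A change of at least 2-fold was called for 5069 genes (35.3%), 2860 of them higher (19.9%) and 2209 lower (15.4%). Large changes were mostly rises: 484 genes (3.37%) rose by 5 or more on the log2 scale and 124 (0.864%) fell by as much. The median over all genes tested was -0.00294 on the log2 scale. Without proliferating replicate 4 the count of called genes was 10922. Scaling by library size alone moved the median of all genes to -0.351 and the split of calls to 3899 higher and 7349 lower, so small rises are relative to the TMM scale. The counts of calls in each list below are to be read against these shares. A gene near 0 in one state passes the filter only through the state where it is high, so each list's count is a description. Where it matters, the count over genes with at least 10 counts in every library is given as well.

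**Figure D1:**
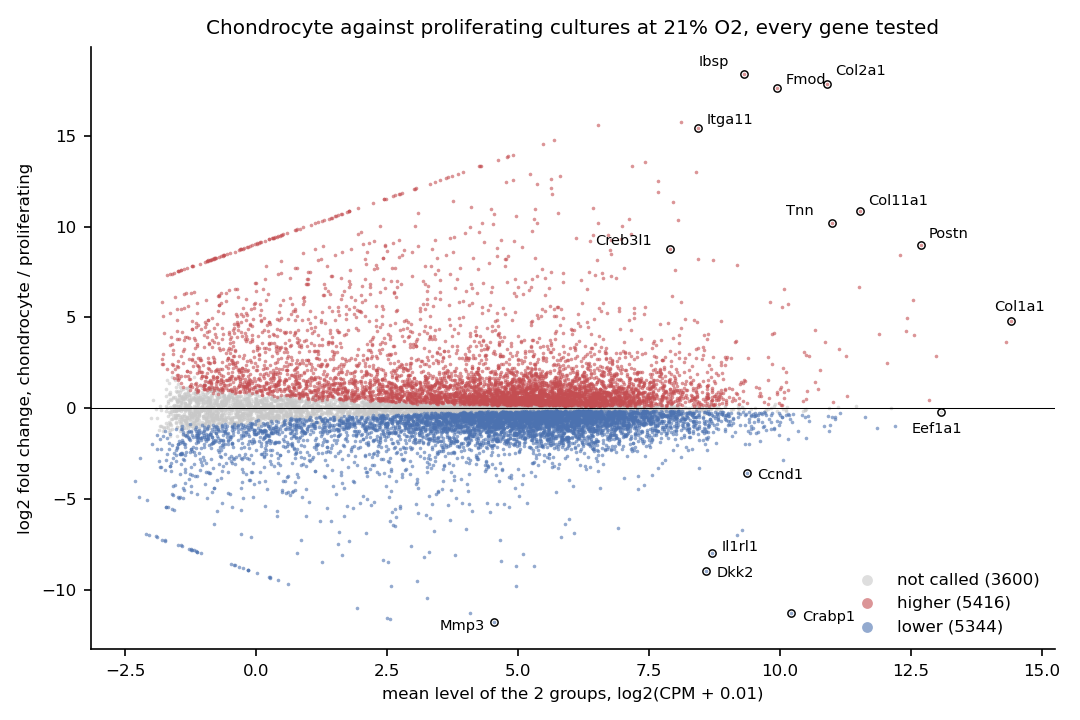
Log2 fold change of chondrocyte over proliferating cultures (y axis) against the mean level of both groups (x axis, log2 of CPM plus 0.01) for each gene tested, coloured by call: 5416 genes higher, 5344 lower and 3600 not called. Rings mark genes named in the text, and the oblique lines of points at the edges are genes with no count in one of the groups, whose fitted fold changes depend on the prior count.

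Matrix genes took a far larger part of the RNA in chondrocyte cultures. The 44 collagen genes held 1.05% ± 0.0227 (SD, n = 4) of all counts in proliferating libraries and 12.4%, 14.1%, 13.1% and 12.2% in chondrocyte replicates 1 to 4. Col1a1 and Col1a2, the chains of type I collagen, rose from 0.515% to 7.12% of counts on average, and the 4 matrix genes Postn, Fn1, Thbs1 and Sparc from 0.32% to 4.49%. The 82 genes of cytosolic ribosomal proteins went the other way, from 5.96% to 3.77%. Shares of all counts sum to a whole, so the rise in matrix genes lowers the share of every other gene. No chondrocyte library overlapped a proliferating library in any of these 4 shares.

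**Figure D2:**
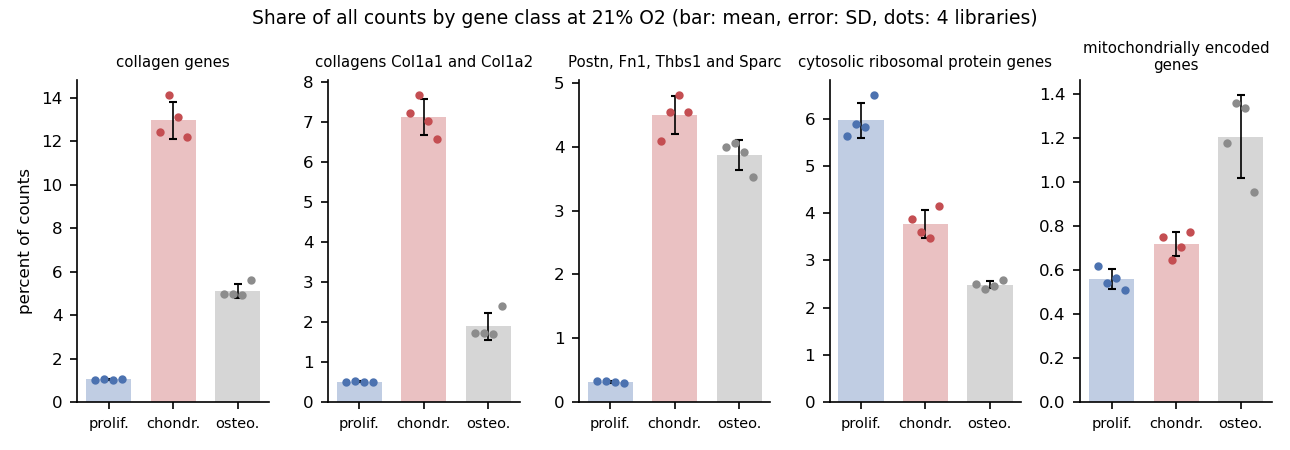
Percent of all counts in each library held by collagen genes, by Col1a1 and Col1a2, by Postn, Fn1, Thbs1 and Sparc, by cytosolic ribosomal protein genes and by mitochondrially encoded genes, for proliferating, chondrocyte and osteoblast cultures (bars, mean; error bars, SD; dots, 4 libraries). Collagen genes reach 12.9% in chondrocyte cultures against 1.05% and 5.13% in the others.

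In chondrocyte cultures the 10 with the highest CPM were Col1a1, Col1a2, Fn1, Postn, Thbs1, Sparc, Col5a1, Col3a1, Col12a1 and the predicted gene Gm42418. In proliferating cultures they were Eef1a1, Vim, Gm42418, Hsp90ab1, Eef2, Actb, Col1a2, Lgals1, Rplp0 and Hspa8. Eef1a1, Eef2 and Rplp0 serve translation, Vim and Actb the cytoskeleton, and Hsp90ab1 and Hspa8 protein folding. Col1a1 was at 1527, 1575, 1515 and 1431 CPM in proliferating and at 41856, 46009, 42701 and 38333 CPM in chondrocyte cultures (4.8, SE 0.09, adjusted p = 1.36e-12). Per kilobase of its exons, type I collagen's Col1a1 had 6434 CPM in chondrocyte cultures, against 463 for Col11a1, 414 for Col2a1 and 287 for Acan. By that measure the collagen of bone and skin exceeded each of the 3 cartilage markers. Eef1a1, a translation factor and the top gene of proliferating cultures, was not called (-0.2, adjusted p = 0.062), but was without chondrocyte replicate 4 (-0.27, adjusted p = 0.00206).

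Among genes with at least 10 counts per library on average in both states, Col11a1 had the largest rise, followed by Kctd12 (10.36), Tnn (10.18), Prelp (9.57), Smoc2 (9.54), Kif26b (9.32), Lrrc75b (9.24), Rgs4 (9.21), Postn, Creb3l1, Col11a2 and Papss2. Rgs4 was 10.7 without proliferating replicate 4 and 8.54 without proliferating replicate 2. Tnn (tenascin N) and Prelp are secreted matrix proteins, and Smoc2 is a calcium-binding matrix protein. Postn encodes periostin, a protein of the periosteum and of ligaments, and was at 24.5, 23.5, 22.2 and 32.4 CPM in proliferating cultures. In chondrocyte cultures Postn reached 11768, 12235, 14555 and 14249 CPM (9.01, SE 0.16, adjusted p = 1.48e-12). Papss2 makes the activated sulphate that chondroitin sulphate chains need, and Creb3l1 is a membrane-bound transcription factor of secretory cells. Papss2 was at 0.53, 0.564, 0.519 and 0.92 CPM and at 206, 238, 253 and 176 CPM (8.47, SE 0.18, adjusted p = 1.71e-11). The 4 chondrocyte values of Papss2 lay close together and far above all proliferating values.

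Among genes with the same minimum count, Crabp1 had the largest fall. Crabp1 (chromosome 9, 54764748 to 54773110, plus strand), which binds retinoic acid inside cells and marks migrating neural crest, was at 2400, 2440, 2404 and 2298 CPM in proliferating and at 0.544, 1.23, 1.16 and 0.957 CPM in chondrocyte cultures (-11.28, SE 0.15, adjusted p = 2.51e-13). The Wnt inhibitor Dkk2 was at 797, 784, 810 and 698 CPM and at 1.67, 1.32, 1.16 and 2.07 CPM (-8.95, SE 0.13, adjusted p = 4.03e-13). Il1rl1, the receptor of interleukin 33, fell from 869, 884, 884 and 679.8 CPM to 2.14, 3.39, 3.28 and 4.35 CPM (-7.99, SE 0.19, adjusted p = 7.8e-11). Each of these genes was among the well expressed genes of the proliferating state and nearly silent after differentiation, with no overlap between groups. Next were Prl2c2 (-7.11), Hmga1 (-6.96), Msln (-6.9), Hmga1b (-6.71), Slc14a1 (-6.6), Gap43 (-6.36), Arhgap22 (-6.12), Nptx1 (-5.69) and Gchfr (-5.65). Hmga1 is a chromatin protein of dividing and embryonic cells. Hmga1 and Hmga1b are near-identical copies, as are Prl2c2 and its relatives, so how their reads were divided is uncertain. Leaving out 1 library moved 2 of these fold changes by over 1.5 times: Nptx1 was -6.42 without chondrocyte replicate 2 and Prl2c2 was -8.34 without chondrocyte replicate 1.

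Some genes were almost silent in one state. With at most 3 counts over all proliferating libraries, the most abundant in chondrocyte cultures were Col2a1, Fmod, Ibsp, Itga11, C1qtnf3, Pth1r, Fgfr3 and F13a1. Fmod (fibromodulin), which binds collagen fibrils and limits their width, had 1 count in proliferating cultures and 1907, 2079, 1965 and 1984 CPM in chondrocyte cultures. The ratio for Fmod was 326567, with a lower 95% limit of 58612. Itga11, a collagen-binding integrin, had 2 counts against 613, 738, 756 and 672 CPM, a ratio of 57195 with a lower limit of 15833. Pth1r, the receptor for parathyroid hormone and its related peptide in growth cartilage, had no proliferating count and 162, 261, 202 and 112 CPM. Pth1r was therefore at least 10115-fold higher, taking 3 counts over the group as the limit that a count of 0 allows. Fgfr3, a growth plate FGF receptor, was at 105, 156, 124 and 59.5 CPM in chondrocyte cultures (ratio 9148, lower limit 2532). C1qtnf3, a secreted protein of cartilage, had a ratio of 91438 (lower limit 16411), and the transglutaminase F13a1 was at least 5667-fold higher.

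In the reverse direction, genes with at most 3 counts over the chondrocyte libraries were less abundant. They were led by Mmp3, a protease that degrades matrix, at 50.5, 51.6, 51.2 and 33.2 CPM in proliferating replicates 1 to 4 and with 1 count in chondrocyte cultures (ratio 4811, lower limit 863). Tac1, which encodes substance P, had a ratio of 3507 (lower limit 629), and Tmem171 one of 1969 (lower limit 353). Cdh26 (865, lower limit 239), Pkp3 (1232, lower limit 221) and Anxa10 (395, lower limit 135) are the next by level with a few counts. Krt12 and Cytip had no chondrocyte count and were at least 403-fold and 388-fold lower. Cdh26, Pkp3 and Krt12 encode a cadherin, a desmosome plaque protein and a keratin.

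**Figure D3:**
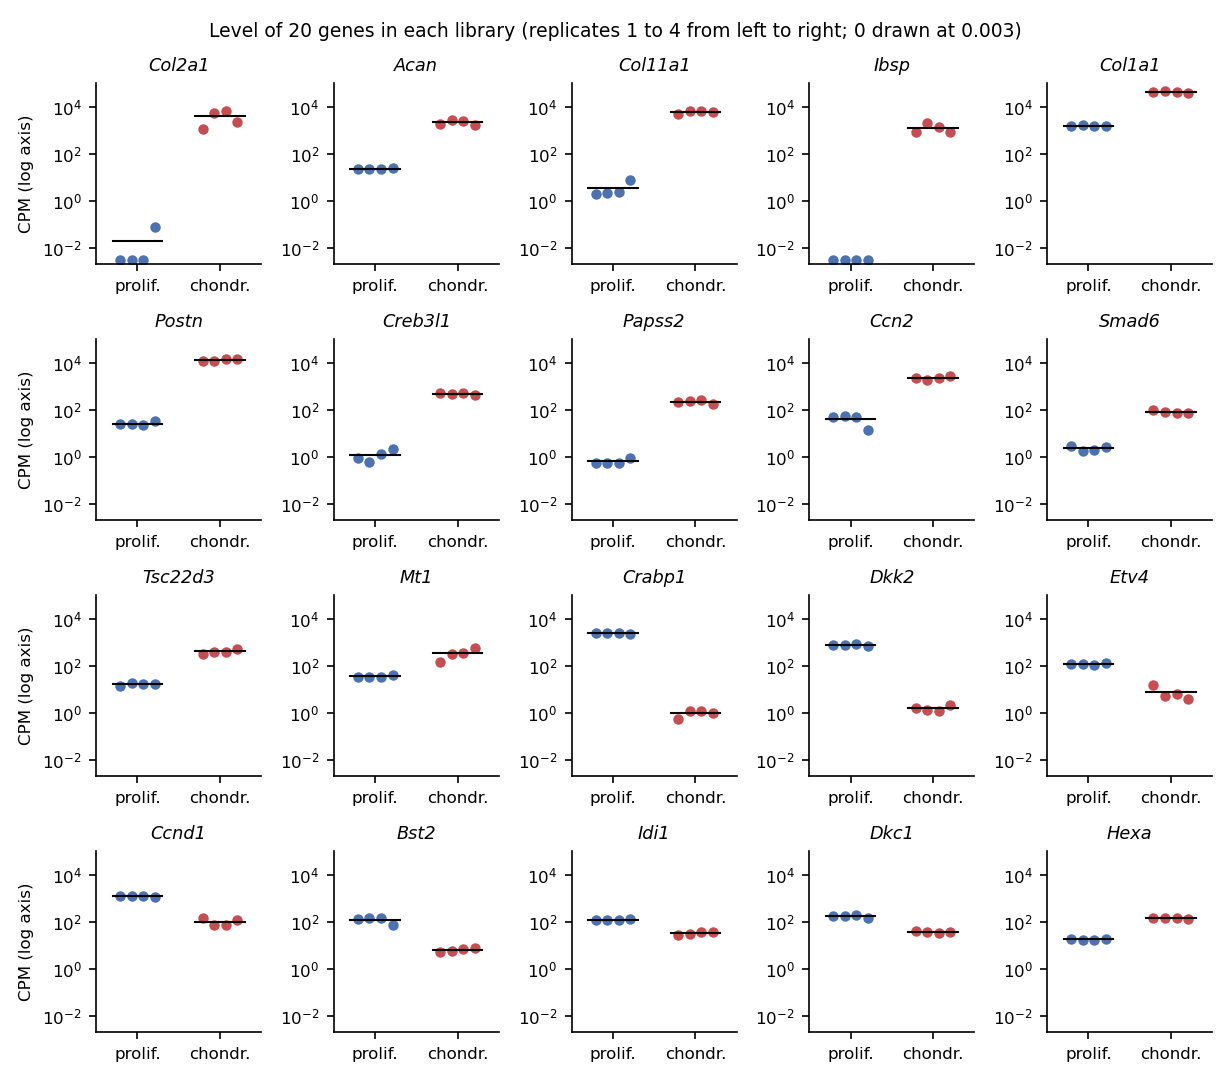
CPM (log axis, 0 drawn at 0.003) of 20 genes named in the text in the 4 proliferating and 4 chondrocyte libraries, with a black line at the mean of each group. In each of the 20 genes the points of one state lie wholly above those of the other, with the 4 chondrocyte points of Col2a1, Ibsp and Mt1 more scattered than those of Col1a1, Postn or Hexa.

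Of 24 cartilage matrix genes looked up, 15 passed the filter and all 15 were higher, against 37.7% of all genes tested. Only 2 of the 15 had at least 10 counts in every library, and both were higher. Hapln1, which links aggrecan to hyaluronan, was at 331, 925, 904 and 538 CPM in chondrocyte cultures and had 13 counts in all proliferating libraries. Col11a2, a second type XI chain, was at 75.6, 363, 356 and 71.5 CPM (8.73, SE 0.99), and Comp, a cartilage protein with binding sites for collagen, at 26.7, 94.2, 77.5 and 27.2 CPM (8.36, SE 0.75). The type IX chain Col9a3 rose less (3.45, or 2.81 without chondrocyte replicate 3), as did Matn3 (4.22). Prg4, the lubricin of the joint surface, rose by 5.53. These genes were uneven among chondrocyte replicates: Col2a1, Col11a2, Comp and Hapln1 were each lowest in replicates 1 and 4.

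That pattern ran through the cartilage genes. Over the 15 tested genes, 10 had a mean of at least 10 CPM, and their median log2 distance from the chondrocyte mean was -1.05, 0.5, 0.44 and -0.71 in replicates 1 to 4. The 30 collagen folding genes that rose, all of that level, varied far less, with medians of -0.08, 0.05, 0.05 and -0.03. Of the glucocorticoid targets that rose, the 17 with a mean of at least 10 CPM had -0.27, -0.02, -0.04 and 0.24, a different order of replicates. Among all 2169 genes that rose and had at least 50 CPM, the median coefficient of variation over chondrocyte replicates was 6.6%. Col9a2 had the highest, 78.4%, followed by Col11a2 (76.3%), Col2a1 (66.3%) and Comp (61.5%). Col9a2, Col11a2, Col2a1 and Comp were nonetheless higher in each chondrocyte library than in any proliferating library.

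**Figure D4:**
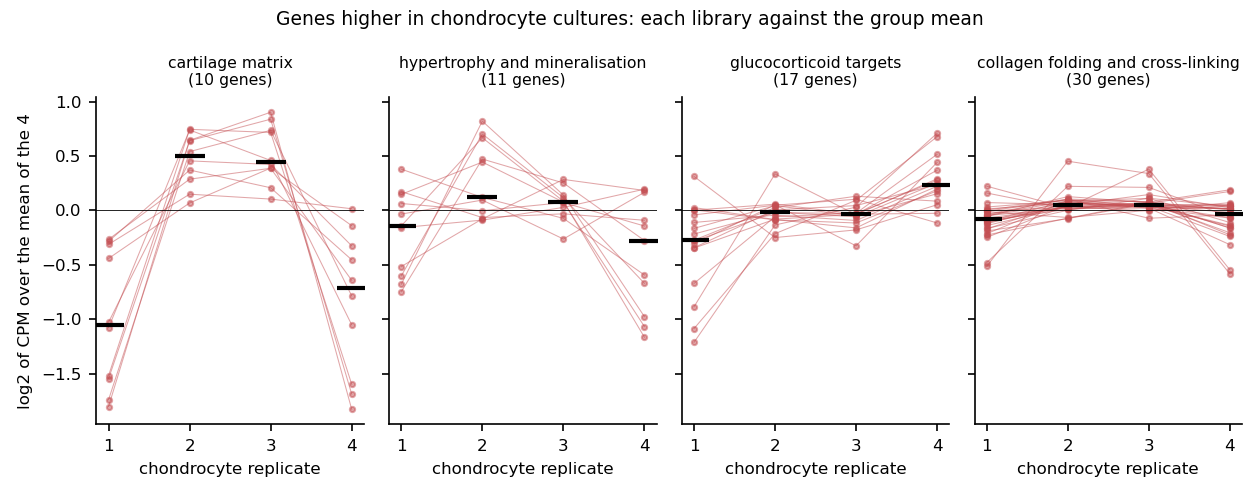
Log2 distance of each gene from its chondrocyte mean in the 4 chondrocyte replicates (x axis, whose order has no meaning), for called genes of 4 lists with a mean of at least 10 CPM. The lines of a gene join its values: cartilage matrix genes lie low in replicates 1 and 4 (medians -1.05 and -0.71), whereas the medians of collagen folding genes (black bars) stay near 0.

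Other genes also set replicate 4 apart from replicates 2 and 3. The metallothionein Mt1 rose from 35, 33.5, 32.5 and 39.7 CPM to 148, 313, 351 and 563 CPM (3.29, SE 0.39, adjusted p = 0.000111), highest in replicate 4 and lowest in replicate 1. Slc2a1, which encodes the glucose carrier GLUT1, was at 85, 89.1, 85 and 93.4 CPM and at 99.3, 164, 154 and 254 CPM (0.93, SE 0.24, adjusted p = 0.00701). Bnip3, a mitophagy gene known to respond to low oxygen, was at 33.9, 35.1, 35.7 and 34.4 CPM and at 163, 246, 227 and 368 CPM (2.85, SE 0.22, adjusted p = 2.19e-06). In both genes replicate 4 was the highest of the chondrocyte libraries and replicate 1 the lowest. What made the replicates differ was not tested.

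Among 17 tested regulators of cartilage, 15 were called higher and 1 lower (13 and 2 by library size alone), with a median of 1.87. Sox9 was already expressed in proliferating cells, at 86.5, 92.8, 88.8 and 126 CPM, and rose modestly to 162, 204, 199 and 130.4 CPM (0.82, SE 0.16, adjusted p = 0.00107). Chondrocyte replicate 4 and proliferating replicate 4 differed little in Sox9. Its partners rose more, Sox5 by 3.16 (SE 0.22) and Sox6 by 5.15 (SE 0.66). Nkx3-2, a repressor that holds back hypertrophy, had no proliferating count and was at least 89.5-fold higher, and Mef2c, which promotes hypertrophy, rose by 3.15. The transcription factor Creb5 was the called exception (-3.1). Ihh, the hedgehog ligand of prehypertrophic cartilage, did not reach the filter, with a mean below 0.1 CPM in both states.

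Of 19 genes of hypertrophy and mineralisation tested, 15 were higher and 2 lower, or 8 and 2 of 11 with at least 10 counts in every library. Ibsp (chromosome 5, 104299171 to 104311469, plus strand), the bone sialoprotein that starts mineral deposition, had no proliferating count and 844, 2084, 1388 and 804 CPM in chondrocyte replicates 1 to 4. Ibsp was therefore at least 70233-fold higher. Col10a1, the collagen of hypertrophic cartilage, was at 244, 568, 488 and 338 CPM, with 11 counts in proliferating cultures. Alpl, the alkaline phosphatase that frees phosphate for mineral, was at 320.4, 394, 305 and 138 CPM, with 4 counts in proliferating cultures. Sp7 (osterix), the transcription factor that commits bone cells, rose by 10.22 (SE 0.32). Panx3, a channel of prehypertrophic cells, was at least 1705-fold and the phosphoprotein gene Mepe at least 376-fold higher. Runx2 was expressed in both states and rose by only 0.55 (SE 0.06, adjusted p = 7.81e-06). Spp1 (osteopontin) did not pass the test (0.06, adjusted p = 0.796). Phex, an endopeptidase whose loss causes hereditary rickets, fell by 3.52 on the log2 scale, and Ank, which exports the inhibitor pyrophosphate or its precursor, changed by -0.98.

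The other collagens rose nearly as a set, 16 of 17 tested, with a median of 3.64. Col8a2 (11.36) and Col12a1 (8.46), the latter a collagen found on the surface of type I fibrils, had large fold changes. Without proliferating replicate 2, Col8a2 gave 12.4. Col3a1 rose by 4.25 and Col5a1 by 4.99. Basement membrane chains Col4a1 and Col4a2 rose by 1.15 and 1.53. Col18a1, the source of endostatin, was lower (-1.11, SE 0.13).

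Enzymes that fold, hydroxylate, cut and cross-link collagen moved with it: 30 of 31 were higher, with a median of 2.37, and the same split was found after scaling by library size alone. Creb3l1 was at 0.921, 0.619, 1.28 and 2.06 CPM and at 536, 484, 493 and 406 CPM (8.78, SE 0.27, adjusted p = 1.52e-09). Lox, which starts cross-links by oxidising lysine, rose by 6.66 and the telopeptide lysyl hydroxylase Plod2 by 4.84. Prolyl hydroxylases P4ha1, P4ha2 and P4ha3 rose by 2.57, 4.44 and 5.58. The collagen chaperone Serpinh1 (HSP47) rose by 2.12, and Adamts2, which removes the amino-terminal propeptide of procollagen, by 5.64. Adamts14, a relative of Adamts2, fell by 2.7. Small leucine-rich proteoglycans, which coat fibrils, were higher for 11 of 13 (7 of 8 with at least 10 counts in every library). Among them decorin (Dcn) rose by 6.32, biglycan (Bgn) by 2.5 and asporin (Aspn) by 8.24, and Podnl1 was lower (-0.95).

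Genes that make sulphated chains were split. Of 28 tested, 17 were higher and 6 lower, or 17 and 10 by library size alone. Besides Papss2, the sulphate carrier Slc26a2 (2.86), the chain-starting xylosyltransferase Xylt1 (4.16) and the chondroitin 4-sulphotransferase Chst11 (4.93) rose. The other sulphate activator, Papss1, was lower (-0.94). Hyaluronan synthases went opposite ways: Has2 rose by 2.55, while Has1 changed by -5.5 and Has3 by -3.65. Matrix proteases and their inhibitors rose in 22 of 26 cases (18 of 20 with at least 10 counts in every library). Gelatinase Mmp2 rose by 2.88, the collagenase Mmp13 by 1.69, the inhibitor Timp3 by 3.28 and the aggrecan-cutting Adamts4 and Adamts5 by 4.72 and 2.76. Of the stromelysins, Mmp3 is described above, and Mmp10 had 2 counts in chondrocyte cultures (ratio 60.1, lower limit 16.6).

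Receptors for matrix changed as well. Of 26 integrins, syndecans and related receptors tested, 19 were higher and 6 lower. The collagen-binding chains Itga2 (3.14) and Itga10 (4.6) rose with Itga11, as did Itgb3 (7.51). The laminin-binding chains Itga3, Itga6 and Itga7 were lower (-3.15, -4.45 and -1.31), and so was the hyaluronan receptor Cd44 (-1.58). Among cadherins, Cdh11, of mesenchyme and bone, rose by 4.67, and Cdh6 had no proliferating count and was at least 595-fold higher. Guidance genes showed both directions, with 23 of 33 in the list of guidance and cadherin genes higher and 10 lower. Robo2 (8.84) and Epha3 (6.67) rose, and Sema7a changed by -3.14.

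The chondrogenic medium held BMP-2, and known BMP targets and feedback genes were higher in 19 of 24 tested, lower in 3, with a median of 2.95. With at least 10 counts in every library, 12 of 17 were higher and 3 lower. Smad6, an inhibitor induced by BMP signalling, was at 2.93, 1.83, 1.9 and 2.69 CPM and at 98.4, 80.1, 73.3 and 68.8 CPM (5.13, SE 0.17, adjusted p = 5.85e-10). Id1, Id2 and Id3, inhibitors of differentiation factors, rose by 1.88, 4.09 and 2.8, while Id4 changed by -1.11. Atoh8, another BMP target, rose by 5.37. Dlx5, a homeobox gene of jaw and bone, had no proliferating count and was at least 2691-fold higher. The secreted BMP antagonist Grem1 fell from 587, 599.5, 619 and 603 CPM to 119.9, 155, 157 and 193 CPM (-1.95, SE 0.12), but the antagonists Nog (4.22) and Chrd (2.74) rose.

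TGF-beta3 was also present, and 20 of 24 genes of the TGF-beta list were higher, 2 lower (4 by library size alone), with a median of 2.36. Ccn2 (CTGF), a secreted matrix protein, was at 49.9, 55.5, 48.8 and 14.1 CPM in proliferating and at 2216, 1898, 2208 and 2642 CPM in chondrocyte cultures (5.73, SE 0.44, adjusted p = 5.52e-06). Pmepa1, a feedback inhibitor, rose by 5.83. All ligand genes rose, Tgfb1 by 2.32, Tgfb2 by 4.58 and Tgfb3 by 1.98. Of the receptors, Tgfbr3 (betaglycan) was lower (-2.52) and Tgfbr2 was not called (-0.06).

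Dexamethasone, a glucocorticoid, was in the chondrogenic and the osteoblast medium. Of 26 glucocorticoid genes tested, 20 were higher and 4 lower. Tsc22d3 (GILZ), a direct target, rose from 14.4, 17.8, 16.7 and 16.8 CPM to 319, 384, 396 and 524 CPM (4.62, SE 0.16, adjusted p = 1.39e-09). Gpx3, a secreted peroxidase, was at 222, 518, 399 and 502 CPM in chondrocyte cultures with 17 counts in proliferating ones. Zbtb16 (PLZF) rose by 9.96, or by 10.78 without proliferating replicate 1. Per1 rose by 2.69, Fkbp5 by 2.33 and the second metallothionein Mt2 by 5.27. Nr3c1, the receptor itself, was lower (-0.75, SE 0.07). Sgk1, another known target, was not called (-0.3, adjusted p = 0.0671), and without chondrocyte replicate 4 it was called lower (-0.4, adjusted p = 0.0106).

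Promoters of this group were read for the core of the glucocorticoid response element, searched as (GNACA, any 3 bases, TGTNC) on both strands in the window from 250 bases before to 50 after the RefSeq start. Of 20 list members with a window, 3 held it (15%; Mt1, Map3k6 and Sgk1), against 145 of 27025 genes (0.537%). A match is a description of letters and not evidence of binding. The Mt1 promoter is shown because its gene rose with strong spread among replicates. The stretch is chr8:94178889-94179058 of GRCm38.p6, plus strand, and covers 200 to 31 bases before the start, with the match, which begins 94 bases before the start, in capitals.
Mt1: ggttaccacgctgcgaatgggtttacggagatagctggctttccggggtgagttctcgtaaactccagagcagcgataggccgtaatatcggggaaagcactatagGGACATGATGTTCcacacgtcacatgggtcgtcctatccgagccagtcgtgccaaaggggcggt

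Feedback genes of FGF and ERK signalling went down. Of 34 tested, 23 were lower and 9 higher, with a median of -1.37, where 37.2% of all genes were lower. Etv4, an ETS factor that follows FGF, was at 119.7, 116, 111 and 129 CPM and at 14.8, 5.11, 6.09 and 3.83 CPM (-3.97, SE 0.38, adjusted p = 1.94e-05). Dusp6, the phosphatase that inactivates ERK, was at 92.2, 94.8, 93.7 and 91.8 CPM and at 14.8, 7, 9.67 and 9.73 CPM (-3.16, SE 0.18). Ccnd1 (cyclin D1) fell from 1256, 1255, 1273 and 1129 CPM to 143, 73.9, 74.5 and 122 CPM (-3.57, SE 0.23, adjusted p = 3.77e-07). In Etv4, Dusp6 and Ccnd1, chondrocyte replicate 1 kept the highest level of its group. Spry4 (-3.79), Spry2 (-3.28), Etv5 (-3.35) and Fosl1 (-3.83) were lower, and the ligand Fgf10 fell by 4.4. Areg, a ligand of the EGF receptor, changed by -8.05, or by -9.31 without chondrocyte replicate 4. The rises in that list were the receptors Fgfr1, Fgfr2, Fgfr3 and Fgfrl1, the ligands Fgf2 and Fgf18, and Spry1, Egr2 and Fos, with Fgfr2 at 5.25 and Spry1 at 1.95. The ETS motif CCGGAAGT, read in the same windows on both strands, was found in 1 of 21 members (4.76%) and in 4.31% of all genes.

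LIF, present in the proliferating medium, signals through Lifr, Il6st and Stat3. In chondrocyte cultures the receptor chains Lifr and Il6st rose by 3.15 and 1.42 and Stat3 by 2.11, while the feedback gene Socs3 was lower (-0.98). The list of LIF and cytokine genes held 10 higher and 9 lower of 25 tested (8 and 5 of 18 with at least 10 counts in every library), near the shares over all genes. Among its chemokines, Ccl2 was lower (-5.89) and Cxcl10, with no chondrocyte count, was at least 51.7-fold lower.

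Of 25 Wnt genes tested, 20 were higher and 4 lower, with a median of 2.19. With at least 10 counts in every library, 8 of 13 were higher and 4 lower. Wif1, a secreted Wnt inhibitor of cartilage, had 1 count in proliferating cultures and 76.8, 69, 56.2 and 37.2 CPM in chondrocyte cultures (ratio 9841, lower limit 1766). Frzb, a further secreted inhibitor, rose by 11.8, or by 13.08 without proliferating replicate 1 and 11.03 without proliferating replicate 2, since it had few proliferating counts. The target Axin2 rose by 1.37 (adjusted p = 0.0188), a call that was lost without chondrocyte replicate 1 or proliferating replicate 2 (adjusted p = 0.0666 and 0.0654). Dkk2, by contrast, had fallen to near silence.

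Notch genes were higher in 14 of 19 (9 of 14 with at least 10 counts in every library), with the ligand Jag1 at 3.06 and the receptor Notch3 at 4.55, whereas Rbpj, the DNA-binding partner of all Notch receptors, was lower (-2.68, SE 0.09). Hedgehog genes were evenly split (8 higher and 8 lower of 16, or 7 and 5 without chondrocyte replicate 2). The co-receptor Boc rose by 8.77 and the hedgehog-binding Hhip, itself a target, fell by 5.48.

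Patterning genes of the face also moved in both directions, 16 higher and 9 lower of 30 tested. Scaled by library size alone, the split was 13 higher and 12 lower. Besides Dlx5, Msx1 rose by 2.43. Dlx6 and Alx4 had no proliferating count and were at least 270-fold and 887-fold higher. The genes Lhx6, Nr2f1 and Osr1, of oral and jaw mesenchyme, were lower (-3.19, -2.29 and -2.22). Prrx1, a broad marker of mesenchyme, was not called (-0.15, adjusted p = 0.118), but was called lower without chondrocyte replicate 4 (-0.21, adjusted p = 0.0183). In retinoid handling, the fall in Crabp1 went with a rise in Dhrs3, which turns retinaldehyde back to retinol (5.22).

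Growth genes of the IGF axis and imprinted loci were higher in 18 of 25 tested. Igf1 rose by 9.23, the non-coding RNA H19 by 8.14 and Mest by 6.61, whereas Igf2 had no count in these libraries. The imprinted genes Dlk1 and Peg10 were lower (-2.11 and -2.6).

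Genes of cholesterol synthesis were lower almost throughout: 22 of 24 genes of the list were lower and 1 was higher, with a median of -1.08. Idi1, an isomerase of the mevalonate pathway, was at 119.9, 120.5, 122 and 133 CPM and at 28.4, 30.2, 35.8 and 38.1 CPM (-1.9, SE 0.09, adjusted p = 2.25e-09). Ebp was the gene that rose (0.5), though not by library size alone. Serum was at 15% in proliferating and at 5% in chondrocyte medium, and its part in these levels was not tested. The sterol motif (ATCAC, any base, CCAC) was in none of 16 member windows and in 0.27% of all, which is a statement about these letters only.

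Energy genes changed in a mixed way. Enzymes of the TCA cycle were lower in 19 of 23 cases, with a small median of -0.4, and 1 was higher. Genes of glycolysis were higher in 14 and lower in 5 of 25 tested, which became 11 and 10 when scaled by library size alone. Pfkfb3, which makes an activator of phosphofructokinase, rose by 4.33 and the isoform Pfkp by 3.19, and the lactate and pyruvate carrier Slc16a1 was lower (-1.67). Gapdh had only 113 ± 58.5 CPM in proliferating cultures (SD, n = 4) and Aldoa 1.31 ± 0.237 CPM. These are the levels of the gene entries read under those symbols. Why they are so low for abundant enzymes was not tested, and their fold changes are uncertain.

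Lysosome and autophagy genes rose in 25 of 29 tested and none was lower, with a median of 1.28. By library size alone, 29 tested genes gave 23 higher and 2 lower. Hexa, a subunit of beta-hexosaminidase, which trims sugars from proteoglycans and lipids, was at 18.5, 17.5, 17 and 18.9 CPM and at 140.2, 148, 144 and 135 CPM (2.98, SE 0.06, adjusted p = 2.57e-12). Cathepsin D (Ctsd) rose by 2.09 and the membrane protein Lamp1 by 1.34. The 4 chondrocyte values of Hexa lay close together and none overlapped a proliferating value.

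In the list of chaperones and sensors of the endoplasmic reticulum (ER) 19 of 22 were higher (15 by library size alone), with Xbp1 at 1.84, Herpud1 at 2 and the chaperone Hspa5 (BiP) at 0.59. Of the targets of ATF4, a factor of the amino acid response, 18 of 22 were higher. The pseudokinase Trib3 rose by 4.07, while the serine synthesis gene Psat1 was lower (-1.93). Targets of NRF2, a factor of oxidative stress, were lower in 16 and higher in 9 of 28 tested, or 19 and 4 by library size alone. Glutathione transferases Gsta4 and Gstm1 had the largest falls (-4.86 and -3.18), and G6pdx, which makes NADPH, changed by -1.77.

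Interferon-stimulated genes were lower in 19 of 24 tested and higher in 1, with a median of -1.28. With at least 10 counts in every library, 12 of 17 were lower and 1 higher. Bst2 (tetherin), which holds virus particles at the cell surface, was at 139, 152, 140.3 and 72.9 CPM in proliferating and at 5.44, 5.55, 7.25 and 7.86 CPM in chondrocyte cultures (-4.27, SE 0.26, adjusted p = 3.15e-07). Isg15, a ubiquitin-like protein, was at 5.42, 5.94, 4.5 and 2.28 CPM and at 0.102, 0.44, 0.501 and 0.319 CPM (-3.76, SE 0.42). Ifit1, which binds foreign RNA, was at 5.95, 6.09, 5.4 and 3.72 CPM and at 0, 0, 0.0385 and 0.239 CPM (-6.21, SE 0.53). Proliferating replicate 4 was the lowest of its group in all 3 genes, and still above every chondrocyte library. Oas1a had no chondrocyte count and was at least 60.9-fold lower. The factor Stat2 (-0.14) and the MHC chain B2m (0.03) were among the genes not called, and Isg20, the exception, rose by 1.19. Stat2 was called lower without proliferating replicate 4 (-0.22, adjusted p = 0.0289). The fold change of Ifit1 rests on few chondrocyte counts and was -8.33 without chondrocyte replicate 4. Without proliferating replicate 4, 23 of 26 tested genes were lower.

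The interferon-stimulated response element was searched as (GAAA, any 2 bases, GAAA) on both strands of the same windows. It was in 7 of 19 members with a window (36.8%) and in 1079 of 27025 genes (3.99%). Of those 7, Ifit1, Ifit3, Isg15, Oas1a and Bst2 were lower, and Stat2 and B2m were not called. The 3 promoters below are shown because their genes had the per-library values above and their matches differ in number and strand. Each covers 200 to 31 bases before the RefSeq start in GRCm38.p6, with matches in capitals. Ifit1 lies at chr19:34640689-34640858 on the plus strand and has matches that begin 104 and 85 bases before the start. Isg15 lies at chr4:156200849-156201018 on the minus strand, and its 3 matches overlap, from 78, 72 and 66 bases before the start. Bst2 lies at chr8:71537503-71537672 on the minus strand, with overlapping matches from 130 and 124 bases before the start.
Ifit1: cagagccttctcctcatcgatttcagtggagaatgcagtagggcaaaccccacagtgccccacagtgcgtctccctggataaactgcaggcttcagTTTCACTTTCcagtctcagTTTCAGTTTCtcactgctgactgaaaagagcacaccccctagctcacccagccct
Isg15: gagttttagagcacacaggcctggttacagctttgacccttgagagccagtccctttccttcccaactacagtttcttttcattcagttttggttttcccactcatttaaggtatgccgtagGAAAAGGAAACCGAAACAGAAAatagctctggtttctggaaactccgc
Bst2: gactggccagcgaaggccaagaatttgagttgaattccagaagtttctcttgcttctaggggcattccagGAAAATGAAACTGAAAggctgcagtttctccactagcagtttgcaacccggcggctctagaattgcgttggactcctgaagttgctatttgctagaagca

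The listed genes of ribosome biogenesis and of DNA replication were lower throughout. All 28 genes of ribosome biogenesis tested were lower, with a median of -1.35, against 37.2% of all genes. Dkc1, the pseudouridine synthase of nucleolar and telomerase RNA, was at 186, 187, 203 and 153 CPM and at 40.1, 35.6, 34.1 and 38.6 CPM (-2.3, SE 0.09, adjusted p = 4.37e-10). Nucleolin (Ncl) fell by 1.66 and nucleophosmin (Npm1) fell by 1.46. All 30 genes of DNA replication tested were lower, with a median of -1.9, and Tk1 at -2.79. The weakest was Rrm2 at -0.29 (adjusted p = 0.0385), whose call was lost when any of chondrocyte replicates 1, 2 or 4 or proliferating replicates 1, 2 or 3 was left out (adjusted p from 0.0629 to 0.085). Genes of cell cycle exit were higher in 16 of 24, among them Cdkn1c (1.98), Foxo1 (3.97) and Cdkn1a (1.09). With scaling by library size alone that count was 11. Trp53, which encodes p53, was lower (-1.47).

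Markers of other cell types were looked up to see what else the cultures may hold. Contractile genes of smooth muscle rose in 14 of 15 tested, with Acta2 at 5.58 (SE 0.09) and Tagln at 4.86. The summed level of that list was 1355 to 1411 CPM in proliferating and 5237 to 5989 CPM in chondrocyte libraries. Myh11, the defining myosin of mature smooth muscle, did not reach the filter, at 0.0333 ± 0.0454 CPM and 0.206 ± 0.149 CPM (SD, n = 4). Tendon and fibroblast genes rose in 25 of 31. Among them, Eln (elastin) had no proliferating count and was at least 4904-fold higher, Tnc (tenascin C) rose by 4.07, and the tendon gene Tnmd had no count.

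Of 27 markers of glia, melanocytes and neurons, 7 had no count, 11 did not reach the filter, 7 were higher and 2 lower. By library size alone, 4 were higher, and without proliferating replicate 4 there were 6 higher and 4 lower of 11 tested. The list summed to 20.8 to 26.1 CPM in proliferating and 123 to 158 CPM in chondrocyte libraries. Stmn2, a tubulin regulator best known from neurons, rose by 6.41 (SE 0.15) and the neuronal tubulin Tubb3 by 3.38, while the neurofilament gene Nefl had no chondrocyte count and was at least 91.5-fold lower. Sox10, Dct and Tyr, which define glia and melanocytes, had no count in any of the 8 libraries.

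The other lists of unrelated lineages had low sums except that of adipocytes. Of 17 skeletal muscle genes, 2 were tested and both were higher (4 of 4 without proliferating replicate 4). They summed to 1.21 to 1.8 CPM and 5.55 to 6.67 CPM, and Myod1 and Myog had no count. Of 14 epithelial genes, 3 were tested and higher, among them the keratin Krt14 (5.05 ± 1.74 CPM in chondrocyte cultures, SD, n = 4), with sums of 4.69 to 6.48 CPM and 9.29 to 15.5 CPM. With no filter on low counts, 4 of 11 epithelial genes were higher and 4 lower, and without chondrocyte replicate 1, 1 of 2 tested was higher. Krt12, Pkp3 and Cdh26, which are outside that list, were lower, as described above. Of 16 endothelial and blood genes, 2 of 3 tested were higher and 1 lower, with sums of 3.04 to 4.16 CPM and 3.39 to 5.85 CPM. Epcam, Krt5, Cdh5, Ptprc and Hba-a1 had a mean below 0.5 CPM in both states and were not tested. Of 15 adipocyte genes tested, 7 were higher and 5 lower, or 6 and 6 by library size alone. Fabp4 rose by 4.93, Pparg by 0.93 and Lipe was lower (-0.84), and Adipoq had no count. Summed levels of that list overlapped between groups, 2575 to 2882 CPM against 1992 to 3102 CPM. Whether other cells contributed to the changes above was not tested.

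Osteoblast cultures are the nearest relative, sharing the osteoblast medium of the first 3 days, BMP-2 and dexamethasone. One osteoblast library stood apart: Col2a1 was at 36.8, 39.5, 45.3 and 807 CPM in osteoblast replicates 1 to 4, scaled over the 8 libraries of that comparison. Fold changes and list counts against osteoblasts are therefore given with and without replicate 4. Of 14319 genes tested, 8546 (59.7%) differed, 4098 higher (28.6%) and 4448 lower (31.1%) in chondrocyte cultures. Without osteoblast replicate 4 the count was 9736, and with scaling by library size alone 2993 were higher and 5733 lower. The same 4 chondrocyte libraries enter this and the main comparison, so the values are set side by side without a test of their likeness.

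Of 15 cartilage matrix genes tested against osteoblasts, 11 were higher and none lower, or 13 and none without osteoblast replicate 4. With no filter on low counts, 9 of all 24 were higher and 2 lower. Ibsp was at 0.398, 0.491, 0.493 and 3.33 CPM in osteoblast replicates 1 to 4 against 791, 1951, 1299 and 753 CPM in chondrocyte replicates on the same scale (log2 fold change 9.94, SE 0.79, adjusted p = 1.43e-05; 11.33 without osteoblast replicate 4). Acan was at 92.8, 102, 98.6 and 385 CPM in osteoblast cultures (3.56, SE 0.53, adjusted p = 0.000494; 4.36 without replicate 4). Col11a1 differed by 1.75 and Col10a1 by 6.63, or 1.71 and 7.71 without that library. Alpl differed by 4.5 and by 7.16 without it, Sp7 by 3.77 and 7.28. Sox9 was not called with all libraries (0.83, adjusted p = 0.147) and was called without replicate 4 (1.58, adjusted p = 2.85e-05). Of 20 hypertrophy and mineralisation genes tested, 15 were higher and 3 lower, or 16 and 3 without replicate 4. By that count, more mineralisation genes were higher than lower in the cultures labelled chondrocyte, compared with those labelled osteoblast.

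Collagen genes were higher for type I (2.54 for Col1a1, 2.75 without replicate 4), whereas Postn was slightly lower (-0.53, adjusted p = 0.0139; -0.66 without it). Plod2 differed by 3.93 and Papss2 by 3.22, or 4.34 and 4.14 without that library. Glucocorticoid targets went the other way although both media held 0.1 µM dexamethasone: 22 of 26 were lower in chondrocyte cultures and 2 higher, or 20 and 2 of 27 without replicate 4. Tsc22d3 differed by -1.69 (-1.74 without it) and Zbtb16 by -2.18 (-2.27). Smooth muscle genes were also lower, in 13 of 17 (14 without replicate 4), with Acta2 at -0.79 (-0.64). Cholesterol genes were lower in 20 of 24, and 21 without replicate 4.

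Ribosome biogenesis genes, lower than in proliferating cells, were higher than in osteoblasts in 24 of 28 tested, and DNA replication genes in 27 of 30, or 26 and 28 without osteoblast replicate 4. Dkc1 differed from osteoblasts by 0.69 (0.73 without that library) and from proliferating cells by -2.3. Of 33 feedback genes of FGF and ERK, 9 were higher and 10 lower than in osteoblasts, or 10 and 16 without replicate 4. Etv4 was at 0.253, 0.164, 0.352 and 0.5 CPM in osteoblast cultures (4.42, adjusted p = 9.1e-05; 4.73 without replicate 4) and Fosl1 differed by 4.45 (5.23), whereas Spry2 differed by -0.93 (-1.06) and Spry4 by -1.39 (-1.71). In glycolysis, 19 of 25 genes were higher and 4 lower than in osteoblasts (18 and 4 without replicate 4), and in the ATF4 list 19 of 22 were higher and none lower, with and without it. Crabp1 was at 36.8, 39.1, 40.7 and 8.37 CPM in osteoblast cultures, above the chondrocyte level (-5.11, adjusted p = 7.11e-05; -5.43 without replicate 4).

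**Figure D5:**
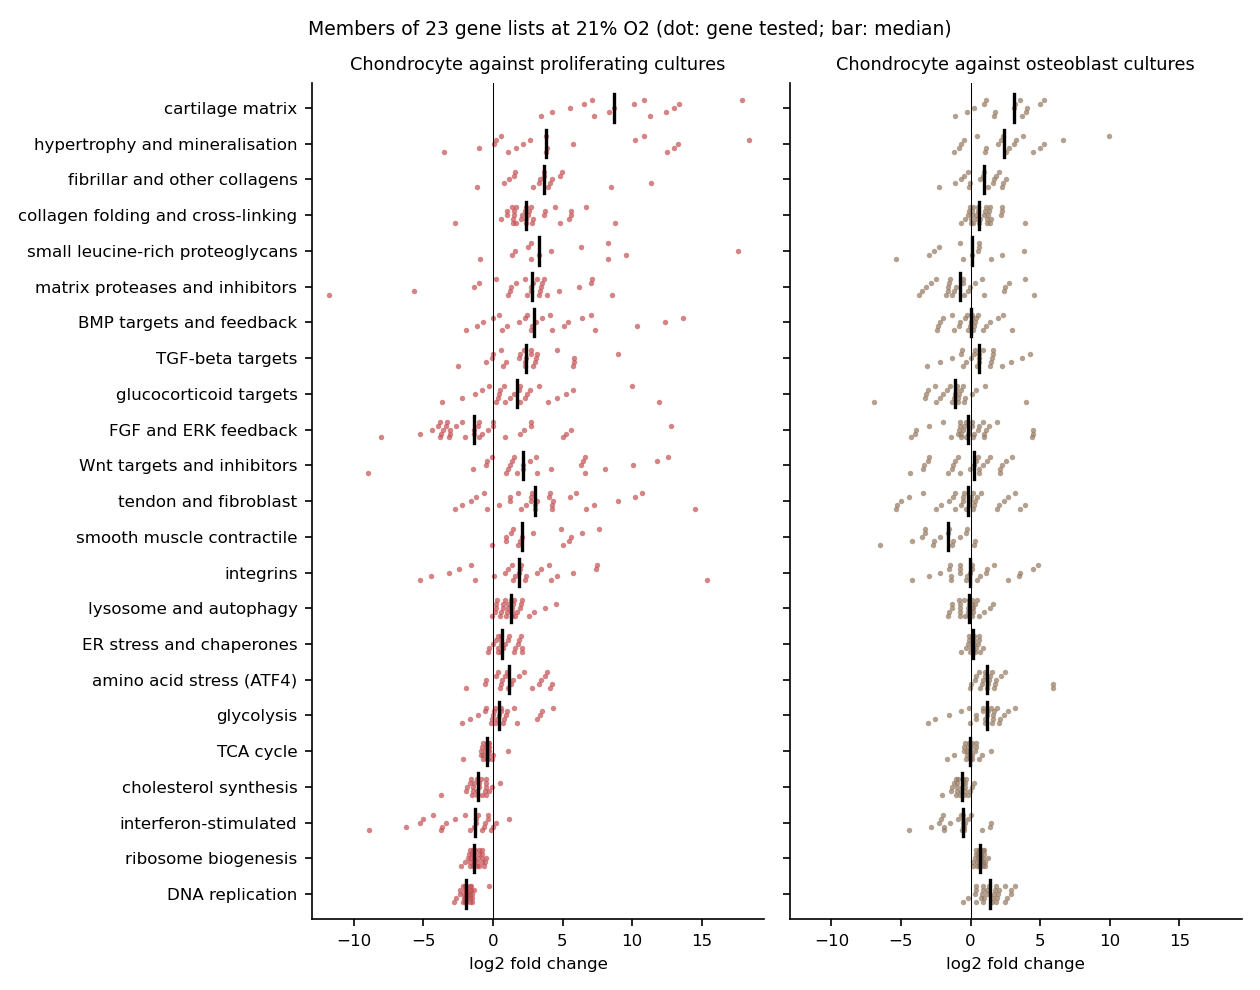
Log2 fold change of each tested gene of 23 lists (dots) and the list median (line), chondrocyte against proliferating cultures on the left and against osteoblast cultures on the right, on a common x axis. Glucocorticoid genes lie mostly right of 0 against proliferating and left of 0 against osteoblast cultures (medians 1.71 and -1.11), and DNA replication and ribosome biogenesis genes the reverse (-1.9 and 1.43, -1.35 and 0.7).

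At 0.5% O2, in libraries that the main comparison does not use, the same pair of states gave 9975 called genes of 14347 (69.5%), 5005 higher (34.9%) and 4970 lower (34.6%). Of the 13878 genes tested at both oxygen levels, 10491 were called at 21% and 9705 at 0.5% O2. The 7375 genes called in the same direction at both were 70.3% of the first and 76% of the second set. Another 798 (7.61% of the calls at 21% O2) were called in the opposite direction. Among genes that changed at least 2-fold at 21% O2, 4063 of 4806 (84.5%) were called the same way at 0.5% O2 and 153 the other way.

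At 0.5% O2, all 11 cartilage matrix genes tested were higher (4 of 4 with at least 10 counts in every library), and 12 of 17 other collagens were higher and 3 lower. Col4a1 and Col4a2, higher at 21% O2, were among those lower at 0.5% O2 (-0.96 and -0.57). Acan had 68.1, 62.3 and 62.9 CPM in proliferating and 465, 701 and 748 CPM in chondrocyte cultures at 0.5% O2 (3.31, adjusted p = 8.63e-06). Ibsp was at 466, 698 and 834 CPM in chondrocyte cultures at 0.5% O2 and had no count in the proliferating ones. Interferon genes were lower in 26 of 26 tested (16 of 16 with at least 10 counts in every library), with a median of -3.39, and cholesterol genes in 23 of 24. Bst2 had 154, 159 and 145 CPM and 4.54, 3.52 and 4.26 CPM there (-5.21, adjusted p = 1.01e-13). Ribosome biogenesis did not fall as a list, with 10 higher and 13 lower of 28 (6 and 17 by library size alone) and a median of -0.01: Rrp12, a factor of ribosomal subunit export, was lower at 21% O2 (-0.97) and higher at 0.5% O2 (1.71, adjusted p = 5.4e-07). Of 25 genes of the glycolysis list, 3 were higher and 18 lower at 0.5% O2. Slc2a1 was at 607, 614 and 604 CPM in proliferating and at 401, 314 and 329 CPM in chondrocyte cultures there (-0.81, adjusted p = 2e-06), against a rise at 21% O2. H19, which rose by 8.14 at 21% O2, was not called at 0.5% O2 (-0.18). Differences between the oxygen levels themselves were not tested.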

How the data were processed

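The authors deposited whole-number counts of reads per gene for 28 libraries of poly(A) RNA, made with a stranded kit, per the labels' protocols. The submitters' processing notes name HISAT2 2.0.5, StringTie 1.3.3b, featureCounts 1.5.0-p3 and the build mm10. Strand use in counting, and whether reads that match several places were kept, is not given in the sources used here, so antisense, overlapping and near-identical genes are uncertain. The table lists 54429 genes. The authors' deposited table of this comparison also gives log2 fold changes and p-values, and all 10760 genes called here have the same sign in it (Col2a1 17.86, Acan 6.59, Crabp1 -11.28 in the authors' deposited table).

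From the counts, edgeR 4.0.16 in R 4.3.3 (filterByExpr with a minimum of 10 counts and 15 in total, TMM, glmQLFit with robust, glmQLFTest, two-sided, Benjamini-Hochberg) was fitted to the 8 libraries of each 21% O2 comparison and to the 6 at 0.5% O2. Total counts, 23904199 to 64693346 per library here, set the precision, and intervals (exact, 95%) and floors (3 counts over a group) cover counting error only. Fits were tested on simulated data. Alternatives were DESeq2 1.42.0, limma-voom (limma 3.58.1), size factors, library size alone, 2 other filters, a fit over all libraries, a replicate block and each replicate left out.

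The comparison and the 39 gene lists were chosen with earlier results of these data known. Genes named are the 12 largest rises and falls (called, at least 10 counts on average in both states, no overlap), the 8 highest genes of one state with at most 3 counts in the other, the 10 most abundant of each state and list members, passing over predicted genes in the first groups. Bnip3 is outside that rule and was chosen after its values were seen. Results for some genes are not reported here. Promoter windows are RefSeq sequence of GRCm38.p6. Gene coordinates, gene types and exon lengths come from a GENCODE annotation of the mouse genome and not from the deposited counts.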

Additional observations from a re-analysis of the deposited data

Results flagged for a closer look

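In 71 sets of 4 gene levels printed above, 13 had a sample whose distance to its nearest neighbour passed the 95% critical value of Dixon's test. These sets are the levels at 21% O2 in proliferating, chondrocyte and osteoblast cultures, without 1 set in which a single library had counts. Chance flags about 1 in 20 sets where sets are independent, but these sets share libraries. The osteoblast levels of Col2a1 were printed above to show that replicate 4 stood apart. Proliferating replicate 4 was that sample in 8 of the 13. It was high in Col11a1 (7.14 CPM against 1.84 to 2.42 CPM in the others), Papss2 (0.92 CPM) and Sox9 (126 CPM). It was low in Il1rl1 (680 CPM), Mmp3 (33.2 CPM), Ccnd1 (1129 CPM), Ccn2 (14.1 CPM against 48.8 to 55.5 CPM in the others) and Bst2 (72.9 CPM). Osteoblast replicate 4 was that sample in 4 of the 5 osteoblast sets, high in Col2a1 (807 CPM against 36.8 to 45.3 CPM in the others), Ibsp (3.33 CPM) and Acan (385 CPM) and low in Crabp1 (8.37 CPM). Chondrocyte replicate 4 was high in Ifit1 (0.239 CPM). None of the proliferating or chondrocyte values crossed into the range of the other state. What sets proliferating replicate 4 and osteoblast replicate 4 apart was not tested.

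For 9 of the genes named, chondrocyte and proliferating libraries separated completely at both oxygen levels but in opposite directions, and the difference between the oxygen levels was not tested. Rrp12 was lower at 21% O2 and higher at 0.5% O2 (log2 fold change 1.71), and the 3 chondrocyte values of Actb at 0.5% O2 were above the proliferating ones without a call (0.16, adjusted p = 0.0619 by edgeR). Those higher at 21% O2 and lower at 0.5% O2 were Slc2a1 (-0.81), Slc16a3 (-1.5), Col4a1 (-0.96), Col4a2 (-0.57), Notch3 (-0.54), Isg20 (-0.99) and Fgf18 (-0.88, adjusted p = 0.0652 by edgeR and so not called).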

How the results depend on the processing

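In the 3 comparisons, all 92 counts of called genes under other settings stayed within 1.5 times of the reported count. For chondrocyte against proliferating cultures at 21% O2 they ran from 9343 (10 counts in every library) to 11742 (no filter), and from 10348 to 10922 with 1 replicate left out. DESeq2 called 10792 and limma-voom 10858. Against osteoblasts, leaving out a replicate gave 7657 to 9736, and at 0.5% O2 9410 to 10255. The values of single genes and of lists that follow are for chondrocyte against proliferating cultures at 21% O2. Of 3786 values of 241 genes named, none of the called ones turned direction, 17 lost and 18 gained a call. Of 623 medians of the lists, 91 moved by more than the spread between replicates without turning sign, 33 of them by library size alone and 20 with 10 counts in every library, a filter that left 2 of 15 cartilage matrix genes. List medians turned sign in 4 cases: LIF and cytokine genes with 10 counts in every library (0.18), and hedgehog (-0.14), retinoid (-0.14) and adipocyte genes (-0.04) by library size alone. Against osteoblasts, single genes were rerun only without osteoblast replicate 4, where 25 of 224 genes named gained and 3 lost a call and none of the called ones turned direction. By library size alone, 34.7% of calls were higher at 21% O2, against 50.3%, 34.3% against 48% in the osteoblast comparison and 31.8% against 50.2% at 0.5% O2.

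With the replicate number as a block, 10619 genes were called. Same-numbered libraries did not deviate together (correlations of 0.119, -0.055, 0.029 and 0.06), so the number does not pair them. Depth limits genes near 0 in one state, whose fold changes depend on a few counts.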
